A study of Mus musculus with 6 samples.

Results

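The 10 genes described here encode proteins of osteoblasts and osteocytes and of the control of mineralization: Bglap, Bglap2, Dmp1, Phex, Mepe, Sost, Smpd3, Enpp1, Sparc and Cthrc1. They were taken by gene symbol, and all 10 were found among the 24346 genes measured in each of 6 RNA-seq libraries. The libraries were made from mouse mandibular condylar cartilage, the growth cartilage at the top of the lower jaw, which was dissected under a microscope. The control group (3 libraries) is labelled fl/fl, the usual notation for a floxed allele. The mutant group (3 libraries) is labelled only as mutant, from a series on deletion of Ihh (Indian hedgehog) in craniofacial neural crest cells, and the series text says that mutant samples were checked for Ihh, Cre and Tomato. The Cre driver, the mouse age, the sex and the number of animals per library are likewise not given, so p-values measure the spread between these libraries, which may be technical.

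Bone is laid down by osteoblasts, which secrete a matrix of type I collagen with non-collagenous proteins such as osteocalcin (encoded by Bglap and Bglap2) and osteonectin (Sparc). Osteoblasts buried in the matrix become osteocytes, which make Dmp1, Phex, Mepe and Sost and through them act on phosphate balance, mineral growth and Wnt signalling. At the condyle the growth cartilage is replaced by bone beneath it, and a hedgehog signal from prehypertrophic chondrocytes is known to promote osteoblast formation next to growth cartilage.

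Values are FPKM, fragments scaled to transcript length and library depth, so that levels can be set side by side between genes. The spacing of low values gave an estimated 1284000 fragments in the shallowest library (control 2) and 1721000 in the deepest (control 3). Ihh itself stood at 3.73, 2.51 and 3.74 FPKM in the controls (always in the order 1, 2 and 3) and at 2.18, 2.33 and 2.66 FPKM in the mutants, with a limma adjusted p of 0.724. Of the 7 cartilage markers measured, 6 had every mutant value below every control value, and 3 were called lower. Over all genes tested, these shares were 9.4% and 0.465%. The seventh marker, Comp, was separated the other way (9.19 to 22.6 FPKM in controls and 23.0 to 91.9 FPKM in mutants, limma adjusted p = 0.173). The summed level of the 7 was 268.6 to 358 FPKM in controls and 142 to 189 FPKM in mutants. Skeletal muscle markers summed to 2659 to 6116 FPKM in controls and 11668 to 21524 FPKM in mutants. Of these 8, 7 had every mutant value above every control value and 6 were called higher. Endothelial markers summed to 46.3 to 90.7 and 139 to 156 FPKM, with 6 of 6 separated in this way and 2 called higher. Over all genes tested, 9.77% were separated in this way and 0.775% were called higher. Xist, the transcript that silences an X chromosome in females, was at 29.5 and 29.2 FPKM in controls 1 and 2 and at 0.577 to 0.984 FPKM in the other libraries, so the sexes were unequal between the groups. The part of muscle, vessel and sex differences in the results below was not tested, and alternative fits with muscle markers or Xist as a covariate are given as values only. In whole tissue, fewer cells of a type and less RNA per cell cannot be told apart.

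Of the 10 genes, 9 passed the filter of at least 1 FPKM in at least 3 libraries and were tested within a limma fit of all 18715 genes that did. Cthrc1 fell in mutants, and none of the other 8 passed the test at a Benjamini-Hochberg adjusted p below 0.05. Over all genes tested, 1.24% were called, 0.465% lower and 0.775% higher in mutants. Mutant values lay wholly below control values for Cthrc1 and Smpd3, 2 of 9 genes, where 9.4% of all genes tested had this pattern, 9.77% had the opposite one and 19.2% either. The median log2 fold change was -0.07 over the 9 genes and 0.00 over all genes tested.

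In controls the order of the mean levels was Sparc, Cthrc1, Bglap, Bglap2, Dmp1, Smpd3, Enpp1, Phex, Mepe and Sost. Neighbours among Bglap, Bglap2, Dmp1 and Smpd3 overlapped in their ranges over the 3 controls, whereas the other neighbours in this order did not. In mutants Bglap stood above Cthrc1 in each of the 3 libraries, and in controls Cthrc1 stood above Bglap in each of the 3.

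**Figure D1:**
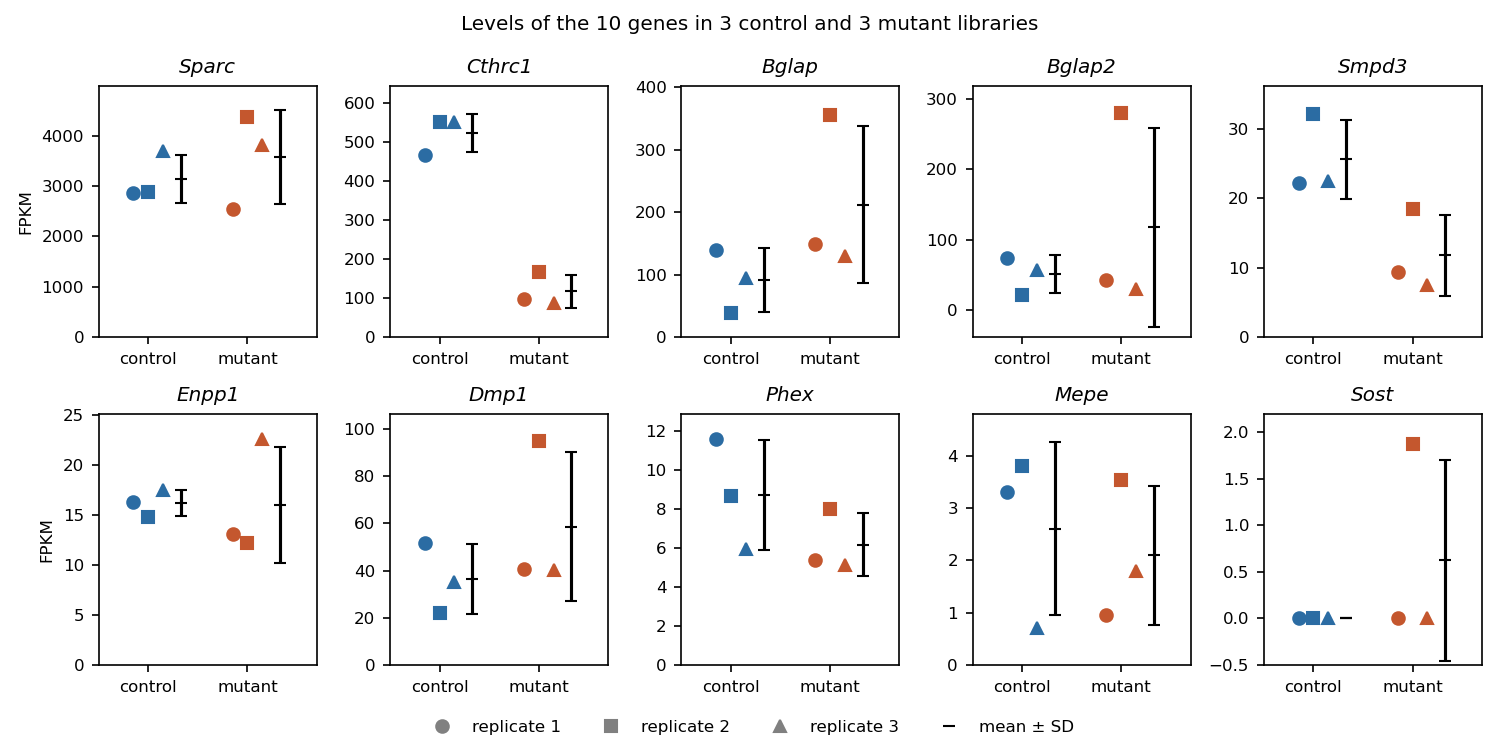
FPKM of each gene in every library (blue, control; orange, mutant; symbol shape, replicate number), with the group mean and SD in black, on a linear axis for each gene; a lower SD bar below 0 reflects 1 high library. Cthrc1 and Smpd3 do not overlap between the groups, and mutant 2 is the highest library for Bglap, Bglap2, Dmp1, Sost and Sparc.

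A pair of sequences is shown first, because osteocalcin and Dmp1 stand for the osteoblast and the osteocyte end of this group and both were highest in mutant 2 and lowest in control 2. They are the 250 bases before the RefSeq start of Bglap (GRCm38.p6, chr3:88384467-88384716, minus strand) and of the Dmp1 window next to the annotated gene start (chr5:104202367-104202616, plus strand). Capitals mark ACCACA, the core of the motif bound by Runx2, the master transcription factor of osteoblasts, which was searched on both strands (TGTGGT on the other).
Bglap: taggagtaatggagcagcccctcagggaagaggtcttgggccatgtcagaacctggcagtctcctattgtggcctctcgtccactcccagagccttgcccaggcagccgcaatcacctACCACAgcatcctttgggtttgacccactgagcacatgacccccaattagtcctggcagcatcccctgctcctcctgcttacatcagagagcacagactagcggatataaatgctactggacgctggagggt
Dmp1: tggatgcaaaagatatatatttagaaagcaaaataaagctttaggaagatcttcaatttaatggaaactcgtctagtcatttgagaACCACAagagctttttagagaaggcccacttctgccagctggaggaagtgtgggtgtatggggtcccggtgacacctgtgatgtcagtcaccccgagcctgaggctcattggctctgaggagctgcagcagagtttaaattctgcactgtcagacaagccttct
Another Dmp1 window in the table, chr5:104197325-104197574, held no match. The match begins 132 bases before the start in Bglap and 164 bases before it in Dmp1. Of the 10 genes, 7 had a promoter sequence in the table used, in 8 windows, and 4 of the 8 windows held the motif (Bglap, Dmp1, Enpp1 and Mepe, the last with 2 matches), compared with 14.1% of all 32851 promoter windows. A match is a description of the sequence only.

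Osteocalcin is the most abundant non-collagenous protein made almost wholly by osteoblasts and is a marker of their late stage. Bglap (chromosome 3, 88383501 to 88384464, minus strand, mm10) was at 140.2, 38.2 and 95.4 FPKM in the controls and at 149, 356 and 131 FPKM in the mutants. Mutant 2 was highest, control 2 was lowest, and the groups overlapped because control 1 lay between the mutants. The means were 91.3 ± 51.1 and 212 ± 125 FPKM (SD, n = 3 per group). On the log2(FPKM + 1) scale used throughout, the fold change was 1.24 ± 0.50 (SE; 95% interval 0.10 to 2.38), which did not pass (limma adjusted p = 0.31). Its estimate became 0.79 without mutant 2 and 0.72 without control 2.

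Bglap2 (chromosome 3, 88377736 to 88378699, minus strand) is a neighbouring copy of the osteocalcin gene. It measured 74.1, 21.3 and 57.7 FPKM in controls and 42.4, 279.8 and 30.1 FPKM in mutants. Mutant 2 stood apart, the other mutants lay within the control range, and the mutant values spanned 9.29-fold. The log2 fold change was 0.65 ± 0.93 (SE; 95% interval -1.63 to 2.93, limma adjusted p = 0.841), and it turned to -0.33 without mutant 2. The spacing of the values gave 28, 8 and 29 fragments in controls and 16, 127 and 12 fragments in mutants. Counting error alone would put the mutant to control ratio at 2.44 with an exact 95% interval of 1.81 to 3.31, far narrower than the spread between libraries.

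The longest transcripts of Bglap and Bglap2 were identical at 434 of 440 aligned bases (98.6%), and 74.7% of the 50-base windows of the former occur in the latter. Reads from these windows cannot be assigned to 1 copy by sequence, so the split between the copies is uncertain. Summed over both copies, osteocalcin measured 214, 59.5 and 153 FPKM in controls and 191, 636 and 161 FPKM in mutants. On the sum, as on either copy, mutant 2 was highest, control 2 lowest and the groups overlapped. The ratio of Bglap to Bglap2 was 1.65 to 1.89 in the 3 controls and 3.50, 1.27 and 4.34 in mutants 1, 2 and 3. Bglap3, the remaining copy in the cluster, reached at most 2.74 FPKM.

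Sparc (chromosome 11, 55394500 to 55423183, minus strand) encodes osteonectin, a collagen-binding matrix protein that is also made by many fibroblasts. It was by far the most abundant of the 10 genes and stood 13th of all 24346 genes by mean level in controls and 15th in mutants. It measured 2856, 2892 and 3700.5 FPKM in controls and 2553, 4381 and 3821 FPKM in mutants. The mutants held both the lowest and the highest value. The log2 fold change was 0.16 ± 0.23 (SE), with a 95% interval of -0.37 to 0.69 (limma adjusted p = 0.841).

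Cthrc1 (chromosome 15, 39076932 to 39087121, plus strand) encodes a secreted glycoprotein with a short collagen repeat, made by activated fibroblasts and by bone-forming cells. It measured 466, 550.2 and 551 FPKM in controls and 98.4, 166 and 88.4 FPKM in mutants. Every control exceeded the highest mutant, and the controls lay within 1.18-fold of each other. The mean fell from 523 ± 48.6 to 118 ± 42.2 FPKM, 4.44-fold lower, and its place among all genes moved from 161st to 776th. The log2 fold change was -2.19 ± 0.25 (SE; 95% interval -2.75 to -1.63, limma adjusted p = 0.0125). The call was lost without control 1 (adjusted p = 0.0619), control 2 (0.0541) or mutant 1 (0.0602), with Xist as a covariate (0.124), with the muscle marker mean as a covariate (0.648) and with controls 1 and 2 left out together (0.28). Its log2 fold change stayed between -3.11 and -2.02 in these and all other fits that were run, with adjusted p from 0.00467 to 0.648.

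Among 10271 named genes with a mean of at least 5 FPKM, those whose deviations over the 6 libraries were closest to Cthrc1 were Postn, C1qtnf3, Panx3, Capn6 and Prss35. Their root-mean-square differences from it were 0.163 to 0.292 log2 units, where Cthrc1 itself deviated by 1.13 from its mean. Postn, which encodes the matricellular protein periostin, measured 834 to 1068 FPKM in controls and 204 to 384 FPKM in mutants. Panx3, a channel gene of hypertrophic chondrocytes and osteoblasts, measured 131 to 182 and 30.8 to 48.1 FPKM. For Dmp1 the closest were Tmcc2, Tusc2, Errfi1, Kcnj12 and Zfp119b (0.123 to 0.188 log2 units, against 0.62 for Dmp1 itself), and for Bglap they were Mafk, Sult1a1, Olfr1087, Coq7 and Rhd (0.201 to 0.285, against 0.943). The closest genes to Dmp1 and Bglap included neither each other nor any other of the 10 genes.

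**Figure D2:**
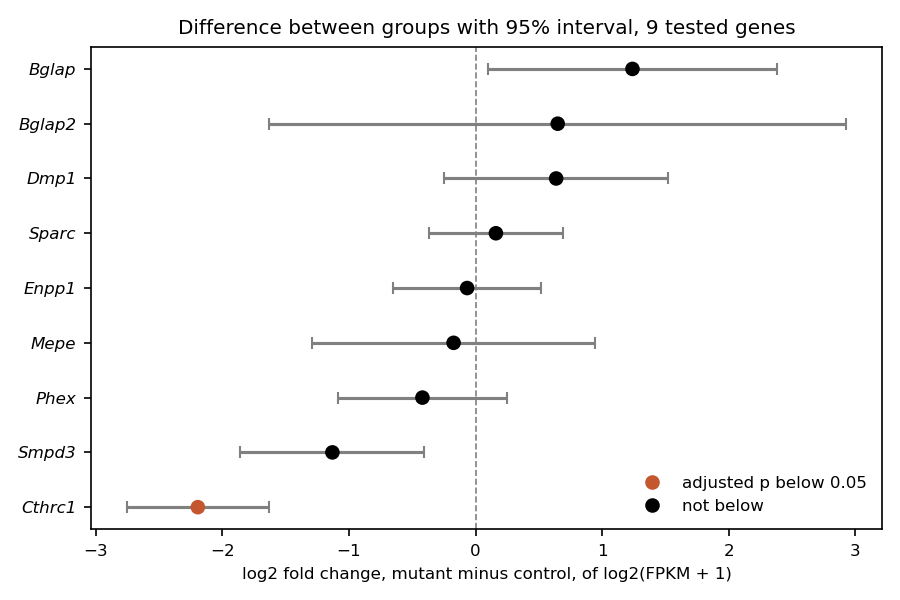
Log2 fold change (mutant minus control) of the 9 tested genes with its 95% interval from limma; orange marks an adjusted p below 0.05 over all 18715 genes. Cthrc1 at -2.19 is the single gene called, and the intervals of Bglap2 (-1.63 to 2.93) and Mepe (-1.29 to 0.95) are the widest beside that of Bglap.

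Smpd3 (chromosome 8, 106252548 to 106337988, minus strand) encodes neutral sphingomyelinase 2, a lipid-cleaving enzyme needed for normal mineralization of bone and cartilage. It measured 22.2, 32.2 and 22.4 FPKM in controls and 9.45, 18.4 and 7.48 FPKM in mutants. Every mutant lay below every control, with mutant 2 nearest to them. The means were 25.6 ± 5.68 and 11.8 ± 5.82 FPKM, and the log2 fold change was -1.13 ± 0.32 (SE; 95% interval -1.86 to -0.40). This did not pass over all genes (unadjusted p = 0.00651, limma adjusted p = 0.141, in a range of 0.0734 to 0.755 over the alternative fits). The spacing of the values gave 158, 227 and 212 fragments in controls and 67, 157 and 56 in mutants. By counting error alone the mutant to control ratio was 0.479 (exact 95% interval 0.414 to 0.553). An exon of Smpd3 overlaps the oppositely transcribed gene Prmt7, and unstranded libraries cannot assign reads there; Prmt7 measured 16.0 to 23.6 FPKM in controls and 12.9 to 16.4 FPKM in mutants.

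Enpp1 (chromosome 10, 24637914 to 24712159, minus strand) encodes the membrane enzyme that makes pyrophosphate, an inhibitor of mineral growth. It measured 16.3, 14.8 and 17.4 FPKM in controls and 13.1, 12.2 and 22.6 FPKM in mutants. The controls lay between mutants 1 and 2 on one side and mutant 3 on the other. Its log2 fold change of -0.07 ± 0.26 (SE) had a 95% interval of -0.65 to 0.52 (limma adjusted p = 0.951), so a difference within these limits was not resolved.

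Dmp1 (chromosome 5, 104202613 to 104214102, plus strand) encodes dentin matrix protein 1, an acidic phosphoprotein of the osteocyte matrix that nucleates mineral. It measured 51.8, 22.0 and 35.2 FPKM in controls and 40.7, 94.9 and 40.3 FPKM in mutants. Mutants 1 and 3 lay within the control range and mutant 2 was 2.35-fold above the lowest mutant. The log2 fold change was 0.64 ± 0.39 (SE; 95% interval -0.25 to 1.52, limma adjusted p = 0.558). It was 0.23 without mutant 2 and 0.33 without control 2.

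Phex (chromosome X, 157162075 to 157415312, minus strand) encodes a membrane endopeptidase of osteoblasts and osteocytes whose loss causes X-linked hypophosphatemia. It measured 11.6, 8.67 and 5.95 FPKM in controls and 5.41, 8.03 and 5.12 FPKM in mutants. Controls 1 and 2 were the highest libraries, and control 3 lay within the mutant range. The log2 fold change was -0.42 ± 0.30 (SE; 95% interval -1.09 to 0.25, limma adjusted p = 0.628). It was -0.21 without control 1, -0.64 without control 3, -0.01 with Xist as a covariate and 0.03 with controls 1 and 2 left out together. Phex is on the X chromosome, and the 2 controls with Xist were the 2 with the highest Phex. Mutant 2, with Xist at 0.577 FPKM, was close to control 2 in Phex (8.03 and 8.67 FPKM). The part of sex in Phex was not tested. The values corresponded to 101, 75 and 69 fragments in controls and 47, 84 and 47 in mutants. The counting ratio of 0.742 had an exact 95% interval of 0.609 to 0.904 that excludes 1, whereas the interval from the spread between libraries included no change.

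Mepe (chromosome 5, 104325329 to 104338611, plus strand) encodes an osteocyte phosphoglycoprotein whose acidic fragment inhibits mineralization, and it is a neighbour of Dmp1 in the cluster of SIBLING genes. It measured 3.30, 3.8 and 0.709 FPKM in controls and 0.946, 3.54 and 1.79 FPKM in mutants. These values rest on 7, 8 and 2 fragments in controls and 2, 9 and 4 in mutants. Control 3 and mutant 1 were low, and the groups overlapped across their whole range. The counting ratio was 0.902 with an exact 95% interval of 0.419 to 1.92, and the log2 fold change was -0.17 ± 0.50 (SE; limma adjusted p = 0.928), so a difference of either of these sizes was not detectable at this depth.

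Sost (chromosome 11, 101962458 to 101967015, minus strand) encodes sclerostin, the Wnt antagonist of mature osteocytes. It was listed at 0 in all 3 controls and in mutants 1 and 3 and at 1.87 FPKM in mutant 2. From the length of its transcript, 2066 bases, and the estimated depth, the value in mutant 2 corresponds to 6 fragments. A count of 0 allows up to 3 fragments, or 0.844 to 1.13 FPKM in the 5 other libraries. Sost was therefore not tested, and it was detected in 1 of 6 libraries.

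Mutant 2, the library with the highest Bglap, Bglap2, Dmp1 and Sost, had the largest sum of FPKM over all genes (738395 against 581072 to 651353) and the highest summed markers in 8 of the 10 lists of cell types, all but cartilage and tendon. Among these were the markers of osteoclasts (2033 FPKM against 381 to 1379.6 FPKM in the others), of marrow granulocytes (617 against 30.6 to 378 FPKM) and of skeletal muscle (21524 against 2659 to 18293 FPKM). The hypertrophic chondrocyte sum in mutant 2 (493 against 486 FPKM in control 2) was mostly Mmp13 (433 FPKM). Its Col10a1, Panx3 and Ihh lay below every control. By mean log2 level, control 2 was highest for hypertrophic chondrocytes (5.85 against 4.90 in mutant 2) and mutant 1 for adipocytes (4.29 against 4.14). Control 2, with the lowest Bglap, Bglap2 and Dmp1, had the lowest muscle (2659 FPKM) and granulocyte (30.6 FPKM) sums but the highest osteoclast sum among controls (1379.6 FPKM). Of the 8 osteoclast markers and the 6 granulocyte markers none was called, with smallest adjusted p of 0.283 and 0.167. No osteoclast marker was at 0 in any library, while the granulocyte genes Elane and Camp were at 0 in at least 1. With the muscle marker mean as a covariate, the log2 fold changes of Bglap, Bglap2 and Dmp1 turned negative (-1.51, -3.99 and -1.29), none of them passing the test. That covariate lay wholly higher in mutants (8.87 to 10.1 log2 units) than in controls (6.96 to 7.84), so muscle and group cannot be told apart in these fits. The part of bone and marrow in these values was not tested.

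**Figure D3:**
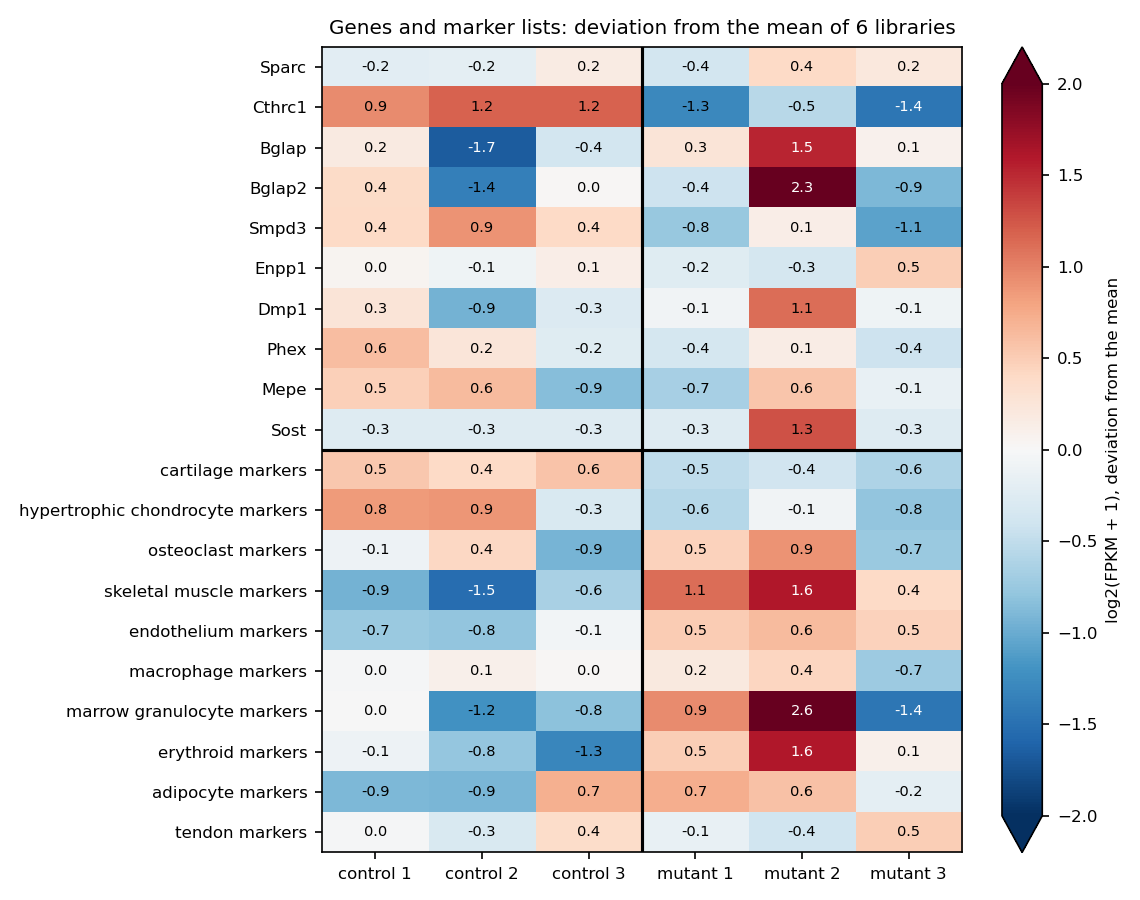
Deviation of each gene (above the line) and of the mean of each marker list (below it) from its own mean over the 6 libraries, in log2(FPKM + 1), with controls left and mutants right of the vertical line; colours end at 2 units. Mutant 2 is high in Bglap, Bglap2, Dmp1, Sost and the granulocyte, erythroid and muscle markers, while Cthrc1 and the cartilage markers are high in all 3 controls.

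Levels were then set relative to Dmp1 within each library, a choice made after the values were seen. The ratio of Bglap to Dmp1 was 2.71, 1.74 and 2.71 in controls and 3.65, 3.76 and 3.24 in mutants, so all mutants were above all controls. This rests on the split between Bglap and Bglap2, which is uncertain. Relative to Dmp1, the summed copies overlapped between the groups. Their sum was 153 FPKM beside 35.2 FPKM of Dmp1 in control 3, and 161 beside 40.3 FPKM in mutant 3. The ratio of Smpd3 to Dmp1 was 0.43, 1.47 and 0.637 in controls and 0.232, 0.194 and 0.185 in mutants. That of Phex to Dmp1 was 0.224, 0.395 and 0.169 in controls and 0.133, 0.0847 and 0.127 in mutants. Both of these, and that of Cthrc1 to Dmp1 (9.01 to 25.1 in controls and 1.75 to 2.42 in mutants), were lower in every mutant than in every control. Bglap2, Mepe, Enpp1 and Sparc overlapped between the groups on this scale, as did the ratio of Bglap to Bglap2. Over all other genes tested, divided by Dmp1 in the same way, 11.0% were lower in every mutant and 1.15% higher in every mutant, and Dmp1 itself had a positive estimate. Cthrc1 and Smpd3 were separated without the division as well. Each of the 4 separated ratios had an exact two-sided permutation p of 0.1, the smallest that 3 against 3 libraries allow, and an adjusted p of 0.225 over the 9 ratios compared. With 3 libraries per group this test could not reach a p below 0.05, so it decides nothing about these ratios.

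**Figure D4:**
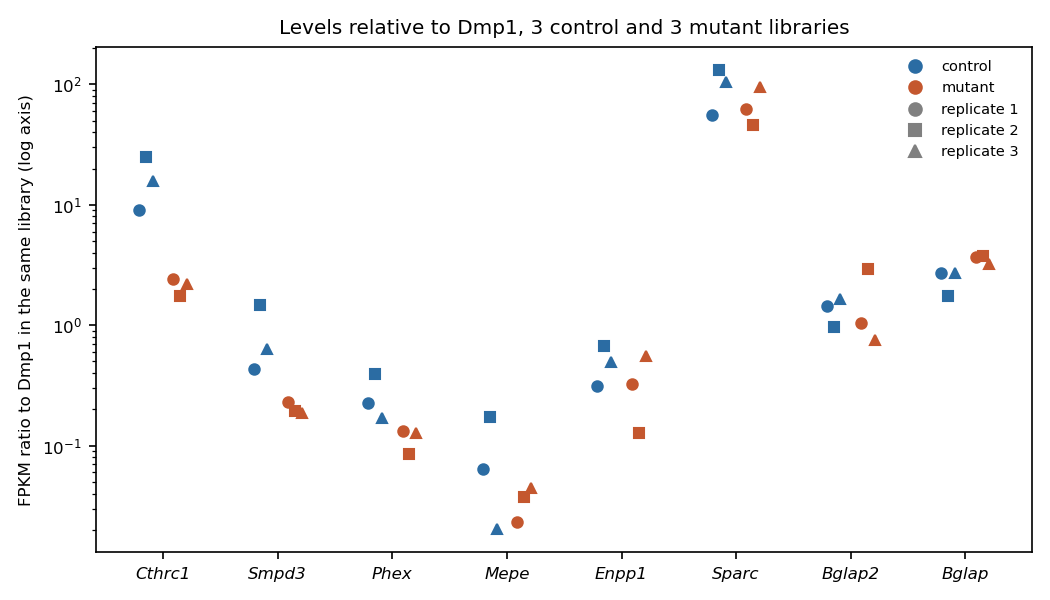
FPKM of 8 genes divided by that of Dmp1 in the same library, on a log axis (blue, control; orange, mutant; symbol shape, replicate number), ordered by the difference between groups. The mutant ratios of Cthrc1, Smpd3 and Phex lie below and those of Bglap above all control ratios. Bglap and Bglap2 are shown apart, although the split between these copies is uncertain.

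A wider list of 64 skeletal genes was examined for the pathway around these members. Of 59 that were tested, 1 fell and 0 rose, the others not passing. Over all genes tested, 0.465% were called lower and 0.775% higher in mutants. The unadjusted limma p was below 0.05 for 14 of the 59, a larger share than the 14.1% of all genes tested that had such a p. The list was chosen with earlier results of these data known, so this share is not a test of the list. With Xist as a covariate the count was 7 of 59 (1900 of all 18715 genes), and with the muscle covariate 10 of 59 (1237 of all). The groups were separated for 12, 6 in each direction, a share of 59 close to the 19.2% seen over all genes. Their median log2 fold change was 0.04.

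Osteoblast transcription factors and receptors gave no call among 10 tested. Runx2 measured 27.6 to 30.6 FPKM in controls and 14.95, 29.2 and 15.9 FPKM in the mutants. Sp7 (osterix), which acts after Runx2, measured 29.5 to 35.7 FPKM in controls and 11.1, 35.2 and 16.2 FPKM in mutants (limma adjusted p = 0.382). The parathyroid hormone receptor gene Pth1r measured 106 to 128 FPKM in controls and 49.8, 113 and 73.7 FPKM in mutants (limma adjusted p = 0.373). In all 3 genes mutant 2 lay within the control range and mutants 1 and 3 below it, Runx2 having been chosen after its values were seen.

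Of 10 bone matrix genes tested none was called. The smallest p belonged to the tenascin gene Tnn (112 to 130.3 FPKM in controls, 24.9 to 80.7 FPKM in mutants, limma adjusted p = 0.094) and to Chad, a cell-binding leucine-rich matrix gene (6.51 to 12.1 and 18.3 to 115 FPKM, adjusted p = 0.143). The type I collagen chain Col1a1, chosen after its values were seen, measured 1686 to 2429 FPKM in controls and 1583 to 3838 FPKM in mutants. Bone sialoprotein (Ibsp), chosen likewise, measured 241 to 944 and 391 to 1246 FPKM.

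Among 9 tested genes of mineral and phosphate handling, the annexin gene Anxa2, whose product is found in matrix vesicles, fell, with means of 1160.5 ± 126 FPKM in controls and 569 ± 78.4 FPKM in mutants (log2 fold change -1.03 ± 0.18 SE, limma adjusted p = 0.0377). Mgp, a mineralization inhibitor, measured 568 to 632 FPKM in controls and 279.9 to 373 FPKM in mutants (limma adjusted p = 0.0507). Slc20a2, chosen after its values were seen, went the other way, from 6.5 to 11.2 FPKM in controls to 18.4 to 35.3 FPKM in mutants (limma adjusted p = 0.0676). Of the 9 genes, 3 were separated with mutants below and 1 with mutants above (9.4% and 9.77% of all genes tested). Their median log2 fold change was 0.15. The call of Anxa2 was lost when any library other than mutant 3 was left out (adjusted p = 0.0746 to 0.148), without a filter (0.0502), under moderation that was not robust (0.0656), with either covariate and with controls 1 and 2 left out together. Its log2 fold change was -1.21 with the Xist covariate and -1.03 with the muscle covariate. Alpl, the phosphatase that degrades pyrophosphate and was chosen after its values were seen, measured 58.4 to 86.2 FPKM in controls and 63.4, 152 and 58.1 FPKM in mutants.

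None of 13 tested osteocyte and endocrine genes was called. The hyaluronan receptor gene Cd44 measured 50.4 to 60.6 FPKM in controls and 36.3 to 44.0 FPKM in mutants (limma adjusted p = 0.3). Tnfrsf11b, which encodes the osteoclast inhibitor osteoprotegerin, measured 9.61 to 13.6 and 1.60 to 9.54 FPKM (adjusted p = 0.311).

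Of 17 tested relatives of the 10 genes none was called. Sparcl1, a relative of Sparc, measured 32.1 to 71.3 FPKM in controls and 81.1 to 113 FPKM in mutants (limma adjusted p = 0.109). Ece1, an endopeptidase of the same family as Phex, measured 5.17 to 13.04 and 17.3 to 20.5 FPKM (adjusted p = 0.165).

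**Figure D5:**
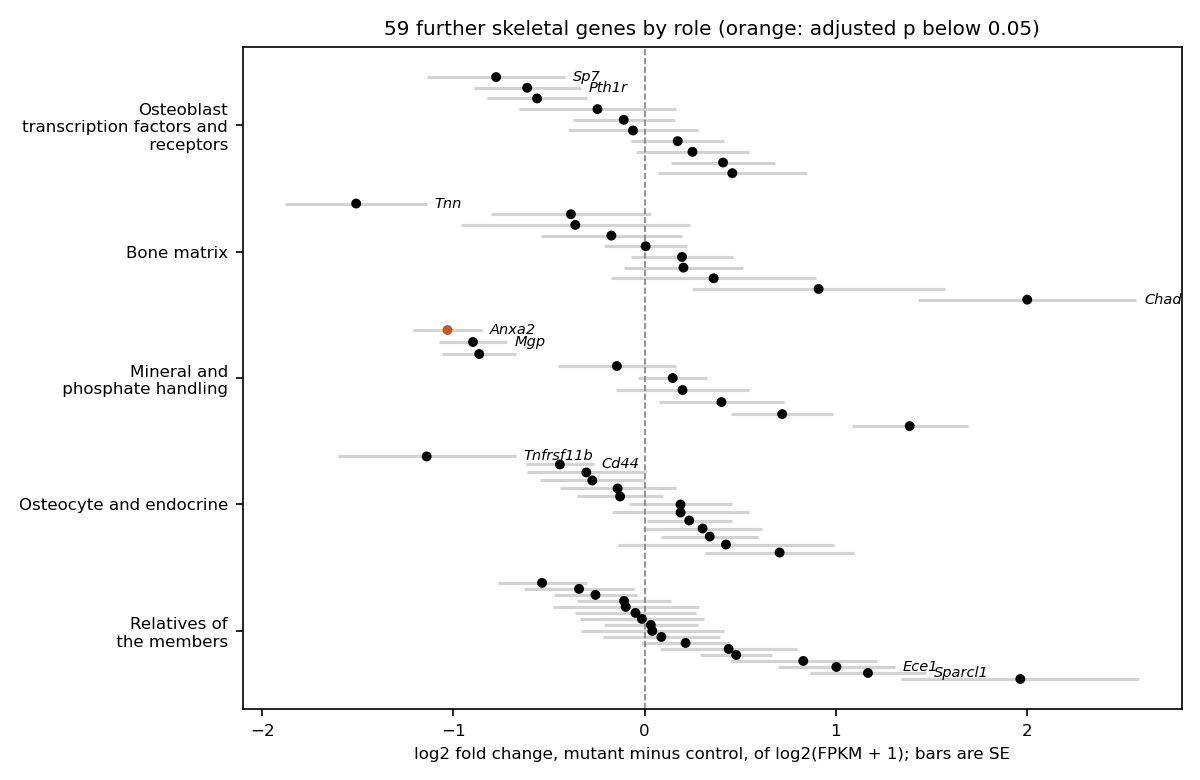
Log2 fold change (mutant minus control) with its SE for 59 further skeletal genes grouped by role; the 2 genes with the smallest p in each role are named and orange marks an adjusted p below 0.05. Anxa2, at -1.03, is the 1 gene called.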

How the data were processed

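Tables of 24346 gene symbols, 1 per library, were deposited with values read as FPKM made by the authors; the headers name no unit, and FPKM was inferred from non-whole values, unequal column sums and the use of Cufflinks. Per the submitters' processing notes, the tools were Cufflinks 2.2.1, TopHat2 2.0.13, Bowtie2 2.2.3 and SAMtools 0.1.19, with mm10 as build. SMART-Seq HT and Nextera libraries, per the labels' protocols, do not keep strand. Any further scaling is not stated.

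The 18715 genes that reached 1 FPKM in 3 or more libraries were fitted by limma 3.58.1 (R 4.3.3; trend, robust moderation, group only) on log2(FPKM + 1), with Benjamini-Hochberg adjustment over all of them. The pseudocount understates changes of low genes. The fit was tested on simulated data with known changes. It recovered 22% of the changes of 1 log2 unit and 87% of those of 2 log2 units, with 7 false calls among 116. A gene that was not called may therefore still differ by about 1 log2 unit. The 10 genes, the wider and marker lists and the alternatives were chosen with earlier results of these data known. Named were all 10 genes, called genes of the wider list and the 2 with the smallest p per role, and the 5 genes closest in pattern to Cthrc1, Dmp1 and Bglap. Ratios within libraries were compared by exact permutation tests. Fragments were taken as the smallest whole numbers (up to 250, within 0.05) that gave all values of a gene at 1 relative total per library. Absolute depth came from the lengths of 958 single-transcript genes and assumes that GENCODE M21 lengths match the authors' annotation, so it is an estimate, and intervals on fragments cover counting error only. Coordinates and transcripts are from GENCODE M21 (GRCm38, the assembly of mm10), and promoters from RefSeq (GRCm38.p6).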

Additional observations from a re-analysis of the deposited data

How the results depend on the processing

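The count of 232 called genes became 133 without a filter, 440 with a filter at 5 FPKM, 411 after quantile normalization, 2 with a replicate block, 2 with the Xist covariate, 2 with the muscle covariate and 5 with controls 1 and 2 left out together, and 13 to 414 when 1 library was left out. The count of 1 among the 10 genes, Cthrc1, became 0 with the replicate block, with either covariate and with controls 1 and 2 left out together, and 0 to 1 when 1 library was left out. For the wider list, the count of 1 became 4 with the filter at 5 FPKM or quantile normalization, 0 without a filter, under moderation that was not robust, with the replicate block, with either covariate and with controls 1 and 2 left out together, and 0 to 3 when 1 library was left out.

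Cthrc1 and Smpd3 kept their direction in every fit that was run. With the muscle covariate the log2 fold changes turned to -1.51 for Bglap, -3.99 for Bglap2, -1.29 for Dmp1, 0.28 for Mepe, 0.73 for Enpp1 and -0.21 for Sparc. With the Xist covariate they turned to 0.68 for Mepe and -0.10 for Sparc, with controls 1 and 2 left out together to 0.025 for Phex, 0.77 for Mepe and -0.082 for Sparc, and after quantile normalization to -0.45 for Sparc. Leaving out 1 library gave ranges of -0.33 to 1.26 for Bglap2, -0.64 to 0.12 for Mepe, -0.33 to 0.090 for Enpp1 and -0.0015 to 0.39 for Sparc. None of these turned values passed the test, and the cause was not tested. The labels do not say that replicate numbers pair libraries, and same-numbered libraries did not deviate together (correlations of -0.016 to 0.0063 across genes). With the block, the adjusted p was 0.0541 for Cthrc1 and 0.114 for Anxa2, at unchanged log2 fold changes of -2.19 and -1.03. With 3 libraries per group and an estimated 1284000 to 1721000 fragments each, Mepe and Sost rested on single-digit fragment counts per library.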
